A study of Homo sapiens with 27 samples.

Results

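Among the shRNAs of a pooled kinome library, 6 of 3177 were over-represented in the vehicle-treated plates of UMSCC1 relative to both other lines of the screen. UMSCC1, UMSCC8 and UMSCC25 are cell lines from head and neck squamous cell carcinomas (HNSCC). The members were chosen by their level with DMSO alone. The unit, CPM, was the count of an shRNA per 1000000 counts of its library, averaged over the 3 DMSO plates of a line. A member had at least 100 CPM in UMSCC1 and at least 3 times the mean of whichever of UMSCC8 and UMSCC25 was higher. The same rule chose 31 shRNAs with UMSCC8 as the high line and 8 with UMSCC25.

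Each line carried the lentiviral shRNA library as a puromycin-selected population and was distributed over 9 plates. In each line 3 plates received DMSO, the vehicle, 3 received gefitinib and 3 received AZD8931. Gefitinib inhibits the tyrosine kinase of EGFR, and AZD8931 inhibits several receptors of the ErbB family. The sample labels give 300 nM gefitinib and 30 nM AZD8931 in the field for treatment, but 1.0 µM for both agents in another field. The agents were present for 72 hours, a recovery of 72 hours followed, and genomic DNA was collected at 144 hours. All 9 groups carried the library, and the sources used here describe no untransduced or unselected group. All plates of a line came from its transduced cells, so a difference between lines cannot be told apart from a difference between their transductions. The sources used here do not say if cells transduced on separate plates were combined first, so p-values measure a spread between plates that may be technical.

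A pooled shRNA screen counts cells by the hairpins they carry. A lentivirus inserts the hairpin cassette into the genome, where it is copied at each division, and PCR of the cassette from genomic DNA followed by sequencing gives its share among the surviving cells. That share reflects both the number of cells that received the hairpin at transduction and the growth and survival of those cells since, and a count of cassettes alone does not separate these. The files used here list the hairpins by clone identifier without gene or sequence, so the members are described by identifier.

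Library totals ranged from 178406 to 559422 counts, so that a count of 0 allows up to 3 counts, or 16.8 CPM in the shallowest library and 5.36 CPM in the deepest. Plates of a group differed by more than counting noise, with a reduced chi-square between 6.21 and 43.1 for the pairs. A pair of libraries stood apart from the rest of their lines. UMSCC8 DMSO replicate 1 had 328 shRNAs at 0, against 87 and 81 in the other DMSO plates of that line, and UMSCC1 AZD8931 replicate 1 had 354 at 0, the most of any library. A single hairpin took 14.0% of the counts of UMSCC1 DMSO replicate 2, which lowers the CPM of all others in that plate, and the leading hairpin of any other library took at most 8.32%. The 6 members together amounted to 35.1 CPM in UMSCC8 DMSO replicate 1 and to 270 and 321 CPM in the other DMSO plates of UMSCC8. The mean of UMSCC8 that the rule used therefore included a plate in which the members were nearly missing. Without that plate TRCN0000001490, TRCN0000002197 and TRCN0000006039 no longer met the rule, while TRCN0000000656, TRCN0000001066 and TRCN0000000508 did. Other results without single libraries are given below. Why these libraries stood apart was not tested.

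The members stood at the end of a continuous range. In UMSCC1, 1882 shRNAs had at least 100 CPM with DMSO, and their ratio to the higher other line had a median of 0.850, a 99th percentile of 2.43 and a maximum of 4.88. A ratio of at least 2 was reached by 49 shRNAs, of at least 2.5 by 18 and of at least 3 by 6. The members were not the abundant hairpins of UMSCC1: they ranked between 963 and 1802 among all shRNAs of the line, and no member exceeded 151 counts in a UMSCC1 library. The spread between plates is given as a description, since a single high plate can both bring a hairpin into the rule and widen its spread. The coefficient of variation over the 3 UMSCC1 DMSO plates had a median of 60.1% for the members and 42.3% for the 920 shRNAs between 100 CPM and the highest member. TRCN0000001066 at 22.5% and TRCN0000001490 at 41.5% were below the latter value.

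TRCN0000000656 was the most abundant member. It had 178, 452 and 124 CPM in the 3 UMSCC1 DMSO plates, a mean of 251 ± 176 CPM (SD, n = 3), with 28.1, 58.4 and 88.8 CPM in UMSCC8 and 93.4, 59.8 and 75.3 CPM in UMSCC25. Every UMSCC1 plate was above every plate of the other lines, and the ratio to the higher line, UMSCC25, was 3.30. With gefitinib the UMSCC1 plates had 100, 398 and 191 CPM, against 123, 124 and 224 CPM in UMSCC8 and 34.3, 25.1 and 66.0 CPM in UMSCC25. UMSCC1 overlapped UMSCC8 on these plates and lay above UMSCC25. With AZD8931 it had 301, 412 and 255 CPM in UMSCC1, 90.9, 77.6 and 81.0 CPM in UMSCC8 and 133, 143 and 117 CPM in UMSCC25. UMSCC1 was above every plate of both other lines on the AZD8931 plates, and this was the only member at or above 100 CPM on all 9 UMSCC1 plates.

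TRCN0000001490 had 178, 236 and 95.7 CPM in UMSCC1 with DMSO, a mean of 170 ± 70.4 CPM (SD, n = 3). It had 2.34, 73.1 and 73.0 CPM in UMSCC8, where the low value is that of the plate that stood apart, and 49.9, 29.9 and 79.6 CPM in UMSCC25. The UMSCC1 plates were above all others, and the ratio to UMSCC25 was 3.19. With gefitinib it had 163, 282 and 159 CPM in UMSCC1, above 108, 98.8 and 50.4 CPM in UMSCC8 and 103, 65.4 and 20.6 CPM in UMSCC25. With AZD8931 the values were 109, 191 and 83.1 CPM in UMSCC1, 78.3, 57.7 and 83.0 CPM in UMSCC8 and 74.0, 87.0 and 44.8 CPM in UMSCC25. UMSCC1 thus lay above both lines on the gefitinib plates, narrowly above UMSCC8 on the AZD8931 plates and overlapping UMSCC25 there.

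TRCN0000001066 varied least between the UMSCC1 DMSO plates, at 191, 131 and 132 CPM (152 ± 34.1, SD, n = 3). It was listed at 0, 43.8 and 9.86 CPM in UMSCC8 and at 34.7, 57.7 and 25.8 CPM in UMSCC25, a ratio of 3.85 to the higher line. UMSCC1 was above every plate of both other lines. With gefitinib it had 144, 161 and 73.3 CPM in UMSCC1, 69.0, 50.4 and 89.7 CPM in UMSCC8 and 7.35, 85.5 and 41.2 CPM in UMSCC25. UMSCC1 replicate 3 fell within the range of the other lines. With AZD8931 it had 124, 97.4 and 213 CPM in UMSCC1, against 50.5, 39.8 and 29.6 CPM in UMSCC8 and 3.70, 34.8 and 44.8 CPM in UMSCC25. UMSCC1 was again above every plate of both lines.

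TRCN0000002197 met the rule through a single plate. It had 317, 27.1 and 26.5 CPM in UMSCC1 with DMSO, from 146, 7 and 13 counts, and the first plate held 85.5% of the summed CPM. The mean of 123 ± 167 CPM (SD, n = 3) was 3.14 times that of UMSCC25, which had 13.0, 49.1 and 55.9 CPM, and UMSCC8 had 2.34, 63.3 and 29.6 CPM. UMSCC1 replicates 2 and 3 lay inside the range of the other lines. The treated UMSCC1 plates were as uneven, with 127, 221 and 7.15 CPM for gefitinib and 107, 18.7 and 18.9 CPM for AZD8931. The other lines ranged from 16.8 to 81.4 CPM with gefitinib and from 8.39 to 68.4 CPM with AZD8931, so that 3 of the 6 treated UMSCC1 plates were above them and 3 were not.

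TRCN0000000508 had the largest ratio of the members to the higher other line, 4.88. Its DMSO values were 102, 178 and 59.0 CPM in UMSCC1 (113 ± 60.1, SD, n = 3), 0, 43.8 and 25.6 CPM in UMSCC8 and 15.2, 2.14 and 17.2 CPM in UMSCC25. The UMSCC1 plates were above all others. With gefitinib the UMSCC1 plates had 36.0, 0 and 130 CPM, from 19, 0 and 73 counts, and the 0 allows up to 7.91 CPM in that library. The UMSCC1 plates thus ranged from no count to the highest value of this hairpin over the 9 gefitinib plates. With AZD8931 it had 53.5, 105 and 17.0 CPM in UMSCC1, while the other lines ranged from 3.98 to 19.8 CPM (UMSCC8) and from 0 to 41.3 CPM (UMSCC25).

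TRCN0000006039 stood just above both limits of the rule, with 111 ± 74.1 CPM (SD, n = 3) and a ratio of 3.08. Its UMSCC1 DMSO plates had 191, 96.6 and 44.8 CPM, UMSCC8 had 2.34, 39.0 and 43.4 CPM and UMSCC25 had 73.8, 29.9 and 4.30 CPM. UMSCC1 replicate 3 was below the highest UMSCC25 plate. With gefitinib the order of the lines was not kept, with 24.6, 89.6 and 50.1 CPM in UMSCC1 and 71.5, 36.8 and 67.3 CPM in UMSCC8, and UMSCC25 had 36.8, 20.1 and 6.19 CPM. With AZD8931 it had 65.6, 184 and 145 CPM in UMSCC1, 30.3, 13.9 and 67.2 CPM in UMSCC8 and 18.5, 19.6 and 8.39 CPM in UMSCC25. UMSCC1 then lay above every UMSCC25 plate and overlapped UMSCC8.

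The excess in UMSCC1 could be followed on the treated plates, which did not enter the choice. The rule itself, applied to the gefitinib plates, selected 20 shRNAs, of which 0 were members. Applied to the AZD8931 plates it selected 35, of which 2 were members, TRCN0000001066 at 3.62 times and TRCN0000006039 at 3.54 times the higher other line. TRCN0000001066 no longer met it there without UMSCC1 AZD8931 replicate 3, nor TRCN0000006039 without replicate 2 of either UMSCC1 or UMSCC8. TRCN0000000508 had a ratio of 3.03 on the AZD8931 plates, but its UMSCC1 mean was 58.5 CPM. The median ratio of the 6 members to the higher other line was 3.25 with DMSO, where it was chosen to be high, 1.98 with gefitinib and 2.74 with AZD8931. Over the shRNAs with at least 100 CPM in UMSCC1 with the same agent, the medians were 0.850, 0.919 and 0.972. That set was chosen anew for each agent, while the members stayed those chosen with DMSO. The UMSCC1 mean was above both other lines for 5 members with gefitinib, the exception being TRCN0000006039 at a ratio of 0.936, and for 6 with AZD8931. The share of all shRNAs with UMSCC1 above both lines was not computed, so these counts describe the members only.

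The 18 treated libraries were then tested in edgeR with a quasi-likelihood fit of 3125 shRNAs, and p-values were adjusted by the Benjamini-Hochberg method over all of them. All 6 members were among the shRNAs tested. A log2 fold change is that of UMSCC1 over the other line. On the gefitinib plates 1 of 6 members was higher in UMSCC1 than in UMSCC25 at an adjusted p under 0.05, where 3.71% of all shRNAs were. This was TRCN0000000656, with a log2 fold change of 2.38 (SE 0.53, edgeR adjusted p = 0.00536). The call was lost without UMSCC1 gefitinib replicate 2, its highest plate, where the log2 fold change was 1.73 (edgeR adjusted p = 0.0544). All 6 members had positive log2 fold changes, as did 48.4% of all shRNAs, with medians of 1.43 for the members and -0.03 for all. The other 5 members, which were not called, ranged from 1.08 to 1.64 with SE between 0.59 and 1.19. Without UMSCC1 gefitinib replicate 3 the log2 fold change of TRCN0000000508 was -0.54. Every UMSCC1 plate was above every UMSCC25 plate for 2 members, TRCN0000000656 and TRCN0000001490, and for 14.1% of all shRNAs.

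Against UMSCC8 on the gefitinib plates, 0 of 6 members passed the edgeR test, with 3.1% of all shRNAs called higher in UMSCC1. At an unadjusted p under 0.05 there was 1 member, TRCN0000001490, with a log2 fold change of 1.23 (SE 0.58, edgeR adjusted p = 0.189), and 10.2% of all shRNAs were higher at that level. DESeq2 called 0 members and 135 of all shRNAs higher. The log2 fold changes of the members had a median of 1.06 against -0.02 for all shRNAs and ranged from -0.06 for TRCN0000006039 to 2.52 (SE 1.30) for TRCN0000000508. Standard errors of 0.50 to 1.30 leave room for differences of several fold, and a p that misses the threshold does not show equal levels. TRCN0000001490 was the member whose plates did not overlap between these lines, as for 12.9% of all shRNAs.

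The members passed the test more often on the AZD8931 plates, where more shRNAs of the whole library did so too. Against UMSCC25, 3 of 6 members were higher in UMSCC1, with 10.7% of all shRNAs called higher. The log2 fold changes were 3.18 (SE 0.84, edgeR adjusted p = 0.00799) for TRCN0000006039, 2.58 (SE 0.78, edgeR adjusted p = 0.0177) for TRCN0000001066 and 1.46 (SE 0.50, edgeR adjusted p = 0.0356) for TRCN0000000656. The same 3 members had no overlap between the plates of these lines, which held for 11.3% of all shRNAs. The call of TRCN0000006039 held without any single library of the comparison. That of TRCN0000000656 was lost without either UMSCC1 AZD8931 replicate 1 or 2 or any of the 3 UMSCC25 plates, and that of TRCN0000001066 without UMSCC1 AZD8931 replicate 3 or UMSCC25 AZD8931 replicate 1. Without these libraries their edgeR adjusted p lay between 0.0548 and 0.104.

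Against UMSCC8 on the AZD8931 plates, 2 of 6 members were higher in UMSCC1, with 10.3% of all shRNAs called higher. TRCN0000000656 had a log2 fold change of 2.18 (SE 0.52, edgeR adjusted p = 0.00380), and its call held without any single library of the comparison. TRCN0000001066 had 2.08 (SE 0.75, edgeR adjusted p = 0.0458). Its call was lost without UMSCC1 AZD8931 replicate 1 or 3 or any of the UMSCC8 plates, with edgeR adjusted p between 0.0635 and 0.135. The plates of these lines did not overlap for 3 members, TRCN0000000656, TRCN0000001490 and TRCN0000001066, and for 11.8% of all shRNAs. The median log2 fold change of the members was 1.60 against UMSCC25 and 2.04 against UMSCC8, with medians of -0.02 and -0.06 for all shRNAs. The comparisons with UMSCC8 and with UMSCC25 share the UMSCC1 plates.

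With total counts in place of trimmed mean of M-values (TMM) scaling, the median of all shRNAs moved by -0.15 against UMSCC25 and by -0.22 against UMSCC8 on the AZD8931 plates. The shRNAs called higher in UMSCC1 made up 46.6% of those called against UMSCC25 with TMM and 36.8% with total counts, and against UMSCC8 these shares were 45.2% and 30.4%. Under that scaling TRCN0000000656 had a log2 fold change of 1.29 against UMSCC25 (edgeR adjusted p = 0.0628) and TRCN0000001066 had 1.86 against UMSCC8 (edgeR adjusted p = 0.0776), so both calls were lost. All members kept their direction under it.

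Within UMSCC1, the treated plates were compared with each other, at doses that differed by the treatment field of the labels but were equal in the other field. AZD8931 against gefitinib gave 0 of 6 members in either direction, with 1.6% of all shRNAs called higher with AZD8931 and 2.34% called lower. At an unadjusted p under 0.05 there were 0 members in edgeR, with 9.63% of all shRNAs higher and 11.6% lower at that level, and DESeq2 called 0 members and 329 of all shRNAs. TRCN0000006039 had the highest log2 ratio of AZD8931 to gefitinib, 1.38 (SE 0.77, edgeR adjusted p = 0.303), and TRCN0000002197 the lowest, -1.04 (SE 0.92, edgeR adjusted p = 0.561). The difference between agents was also compared between lines. The lowest edgeR adjusted p among the members was 0.292, for TRCN0000000656, whose log2 ratio of AZD8931 to gefitinib was 1.59 higher in UMSCC1 than in UMSCC8. Its mean was 230 CPM with gefitinib and 323 CPM with AZD8931 in UMSCC1, and 157 and 83.2 CPM in UMSCC8.

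Ratios of inhibitor to DMSO are a description, because the DMSO level chose the members. In UMSCC1, 5 of 6 members had a lower mean with gefitinib than with DMSO and 4 of 6 with AZD8931, where 48.3% and 53.5% of the shRNAs at or above 100 CPM were lower. The ratio of gefitinib to DMSO was lowest for TRCN0000000508 at 0.491 and TRCN0000006039 at 0.494, and highest for TRCN0000001490 at 1.19. For AZD8931 it was lowest for TRCN0000002197 at 0.390 and highest for TRCN0000000656 at 1.28. In UMSCC8 the members had a median ratio of gefitinib to DMSO of 1.90, where the median over all shRNAs with at least 10 counts was 0.949. That ratio rests on DMSO plates which include UMSCC8 replicate 1.

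Summed over the 6 members, the level was 482 to 1156 CPM on the UMSCC1 DMSO plates, 595 to 1152 CPM with gefitinib and 733 to 1008 CPM with AZD8931. The sums in UMSCC25 were 229 to 280, 192 to 287 and 224 to 354 CPM for the same agents. In UMSCC8 they were 35.1 to 321, 405 to 460 and 227 to 306 CPM. With each inhibitor the lowest sum in UMSCC1 was above the highest in either other line. The same order with DMSO is no separate result, because the rule chose the members on those plates. Sums over other sets of shRNAs were not computed. The members also differed within the sum. With gefitinib TRCN0000000656 had a UMSCC1 mean of 230 CPM, while TRCN0000006039 had 54.8 CPM against 58.5 CPM in UMSCC8.

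Just below the ratio were TRCN0000010238 (231 CPM, ratio 2.95), TRCN0000002077 (361 CPM, ratio 2.94) and TRCN0000021452 (511 CPM, ratio 2.88), next to the members TRCN0000006039, TRCN0000002197 and TRCN0000001490 at 3.08, 3.14 and 3.19. On the treated plates the ratios of these 3 to the higher other line were 2.45, 2.38 and 2.09 with gefitinib and 1.17, 2.93 and 1.29 with AZD8931, in the same order. TRCN0000002077 was thus the only one of them above 2 with AZD8931. Just below 100 CPM were TRCN0000039774 (83.1 CPM), TRCN0000000613 (74.3 CPM) and TRCN0000010091 (55.4 CPM), next to TRCN0000006039, TRCN0000000508 and TRCN0000002197 at 111, 113 and 123 CPM. The ratio of TRCN0000000613 was 3.27 with DMSO, 1.41 with gefitinib and 2.11 with AZD8931, and that of TRCN0000010091 was 4.30, 2.11 and 0.565.

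TRCN0000039774 is the hairpin among these that the study pairs with a gene, TGFBR1, the type I receptor for TGF-β. It had 189, 46.4 and 14.3 CPM in the UMSCC1 DMSO plates, from 87, 12 and 7 counts, a mean 5.79 times that of the higher other line. On the UMSCC1 gefitinib plates it had 0, 18.5 and 7.15 CPM, and on the AZD8931 plates 0, 63.7 and 3.78 CPM. Its DMSO mean thus came mainly from replicate 1, the plate that also held most of TRCN0000002197. The treated UMSCC1 means, 8.54 and 22.5 CPM, were 0.387 and 0.740 times the higher other line. The paper lists this hairpin among those reduced by gefitinib in UMSCC25. Its means with DMSO, gefitinib and AZD8931 were 14.4, 0 and 30.4 CPM in UMSCC25 and 7.35, 22.1 and 23.7 CPM in UMSCC8. The DMSO means came from 3, 0 and 17 counts in UMSCC25 and from 0, 5 and 5 counts in UMSCC8, the 0 of UMSCC8 being from the plate that stood apart. The order of the means differed between lines and agents, but it rests on few counts and was not tested.

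TRC clone numbers that follow one another can belong to hairpins of the same gene, but the files used here do not say which do. No members had consecutive numbers. The 22 listed shRNAs within 2 numbers of a member had a median DMSO ratio of 0.933 to the higher other line, 13 were under 1 and 0 reached 2. TRCN0000000509, beside TRCN0000000508, had 138 CPM in UMSCC1, 24.2 CPM in UMSCC8 and 86.9 CPM in UMSCC25 with DMSO. TRCN0000006038, beside TRCN0000006039, had 335, 155 and 209 CPM in the same order. On the AZD8931 plates TRCN0000006038 had 2255, 292 and 665 CPM in UMSCC1, where it met the rule at 9.23 times the higher other line. The highest of these came from UMSCC1 AZD8931 replicate 1, a library that stood apart.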

How the data were processed

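The authors deposited a table of raw counts per shRNA for 27 libraries, each from the genomic DNA of 1 plate (3 lines, 3 agents, 3 plates a group). The submitters' processing notes name Bowtie 1.0.0, edgeR and hg19 without their roles, and the paper cites the BiNG!S pipeline. Every column was matched by its label, and 0 per-sample columns were unmapped. Of 3177 shRNAs, 31 were at 0 in all libraries.

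CPM was computed from column totals. The test of the treated libraries used edgeR 4.0.16 under R 4.3.3 (TMM, robust glmQLFit, glmQLFTest, 6 groups, no replicate term, at least 10 counts summed over 18 libraries), at an adjusted p of 0.05 over the 3125 shRNAs tested. Non-overlap means that the lowest UMSCC1 plate exceeded the highest plate of the other line. SEs were derived from the F statistic. DMSO libraries were left out of the fit. DESeq2 1.42.0, other scalings, filters, a replicate block and leaving out each library were alternatives, and a ratio of at least 2 and the rule without single treated UMSCC8 or UMSCC25 libraries were added after seeing the data. Scripts were tested on simulated data. PCR reads carry no molecular identifiers, so limits from a count of 0 cover counting error only.

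The members, lists and tests were chosen with earlier results of these data known. Named shRNAs were all members and the 3 shRNAs on either side of each limit. TRCN0000000509, TRCN0000006038, TRCN0000001079 and TRCN0000001990 were picked after their values were seen. Hairpin sequences and target genes were not analysed here.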

Additional observations from a re-analysis of the deposited data

How the results depend on the processing

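Which hairpins met the rule depended on the processing. TMM-scaled CPM gave 16 and totals without the most abundant shRNA 10, each with the 6 members among them. A ratio of at least 4 or a level of at least 200 CPM left 1, a ratio of at least 2 (added after seeing the data) gave 49, and the median over plates gave 4, of which 2 were members. Leaving out a DMSO library gave 4 to 14. Members were lost without UMSCC1 replicate 1 (TRCN0000002197 and TRCN0000006039), UMSCC1 replicate 2 (TRCN0000000656, TRCN0000001490 and TRCN0000000508), UMSCC8 replicate 1 (given above), UMSCC25 replicate 1 (TRCN0000002197), UMSCC25 replicate 2 (TRCN0000000656, TRCN0000001490 and TRCN0000006039) and UMSCC25 replicate 3 (TRCN0000006039). TRCN0000001066 met the rule without any single library. Leaving out a treated library of any line (those of UMSCC8 and UMSCC25 were added after seeing the data), 0 to 1 members met the rule with gefitinib (TRCN0000002197 without UMSCC1 replicate 3) and 1 to 2 with AZD8931 (TRCN0000006039 was lost without UMSCC1 or UMSCC8 replicate 2, TRCN0000001066 without UMSCC1 replicate 3).

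For members called higher in UMSCC1 than UMSCC25 with gefitinib, DESeq2 gave 2 (190 of all shRNAs, edgeR 116), and leaving out a library gave 0 to 2 (34 to 108 of all). Against UMSCC8 with gefitinib, all shRNAs called ranged from 36 to 80 without a library (97 with all). Against UMSCC25 with AZD8931, the fit of only 6 libraries gave 1 member and 157 of all shRNAs (334 in the fit of 18), DESeq2 3 and 426, and leaving out a library 1 to 2 members and 166 to 435. Against UMSCC8 with AZD8931, total counts gave 1 member and 206 of all (322 with TMM), DESeq2 3 members (TRCN0000006039 gained, DESeq2 adjusted p = 0.0241) and 402 of all, 6 libraries 181, and leaving out a library 1 to 2 members and 193 to 409. For AZD8931 against gefitinib, all shRNAs called were 123 in the fit of 18, 329 by DESeq2, 1 in the fit of 6 libraries and 0 to 330 without a library, with 17 higher and 71 lower for total counts (50 and 73 with TMM), a median shift of -0.13.

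Deviations of same-numbered plates correlated between -0.07 and 0.20 over the pairs of treated groups examined. Any pairing by replicate number was therefore weak there. Between UMSCC1 and UMSCC25 with AZD8931 the correlations were all positive, at 0.08 to 0.19. DMSO plates were not examined for this. The replicate block gave 1 member against UMSCC8 with AZD8931 (TRCN0000001066 was lost, edgeR adjusted p = 0.0620), 42 shRNAs for AZD8931 against gefitinib, and a log2 ratio of -0.048 in place of 0.19 for TRCN0000000508.

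Without a library, log2 fold changes that were not called turned sign in these ranges: TRCN0000000508 with gefitinib against UMSCC25, -0.54 to 2.41, and for AZD8931 against gefitinib, -0.38 to 1.81; TRCN0000006039 and TRCN0000000656 with gefitinib against UMSCC8, -0.60 to 0.30 and -0.055 to 0.97; TRCN0000002197 with AZD8931 against UMSCC25 and UMSCC8, -0.79 to 1.75 and -0.49 to 1.48, lowest without UMSCC1 replicate 1. For single members, 327 values under an alternative kept direction and call, 18 lost the call, 4 gained it and 11 turned sign. The cause was not tested.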

Other observations

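A pair of shRNAs met the same rule on the gefitinib plates and again on the AZD8931 plates, 10% of those selected with gefitinib and 5.71% of those selected with AZD8931. Neither was a member, and the pair was chosen after its values were seen. TRCN0000001990 had 202, 375 and 717 CPM in the UMSCC1 DMSO plates, where its ratio of 2.73 to the higher other line was under the limit. It had 721, 1097 and 560 CPM with gefitinib and 68.0, 929 and 550 CPM with AZD8931, ratios of 3.79 and 3.00. Its low AZD8931 value was that of UMSCC1 replicate 1, a library that stood apart. TRCN0000001079 had 17.4, 81.2 and 97.7 CPM with DMSO, a ratio of 0.891. With gefitinib it had 26.5, 26.4 and 795 CPM, so that 1 plate carried its ratio of 3.74. With AZD8931 it had 262, 97.4 and 134 CPM, a ratio of 3.09. The highest of these was that of UMSCC1 replicate 1, the library that stood apart.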
